A study of Mus musculus with 11 samples.

Results

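Immunoglobulin genes were followed in the RNA of cells sorted from mouse duodenal epithelium. The members were chosen by gene symbol, as the heavy chain (Igh), kappa (Igk) and lambda (Igl) genes and Jchain with a total of 15 or more counts over the 11 libraries. The pattern found 178 of 38283 genes, and 1 of them, Ighmbp2, encodes a helicase that the pattern catches by its first letters, so 177 immunoglobulin genes were described. They were 75 Ighv segments, 87 Igkv segments, 3 Iglv segments, 7 heavy chain constant genes, the kappa constant gene Igkc, the lambda constant gene Iglc2, the joining segments Ighj1 and Ighj4, and Jchain. The smallest totals inside the limit were 15 counts for Igkv1-115 and 18 for Igkv4-62 and Igkv7-33, and Igkv10-95, Igkv2-112 and Ighv2-6-8 lay just outside it with 14 each. Ighmbp2 did not differ past the threshold between NeuroD1 positive and NeuroD1 negative cells (log2 fold change -0.08 ± 0.83 SE, adjusted p = 0.97).

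The NeuroD1 libraries came from mice of the strain Neurod1-cre-eYFP, in which a Cre recombinase under Neurod1, a gene of enteroendocrine cells, marks cells with a yellow fluorescent protein. The Glu libraries came from GluVenus mice, named for a Venus reporter of proglucagon (Gcg) expressing cells. In each strain reporter positive cells and about as many negative cells were sorted, giving 3 NeuroD1 positive libraries with 3 negative ones and 3 Glu positive libraries with 2 negative ones. No treatment was given, and the sources used here give neither the age nor the sex of the mice. The labels do not say whether the numbers in the sample names stand for separate animals. The p-values therefore measure only how far these samples spread, which may be technical.

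Plasma cells are the antibody secreting end stage of B cells. In the intestine they lie mainly in the lamina propria, beneath the epithelium, and most of them secrete dimeric IgA, whose subunits are held together by the joining chain (Jchain) and carried across the epithelium by the polymeric immunoglobulin receptor (Pigr). An antibody chain is encoded by a variable segment joined to a J segment (and, in heavy chains, a D segment), followed by a constant gene that sets the isotype or light chain class. Each clone of plasma cells carries its own joined segments, but clones can share a variable segment and no junction was read here. The spread of counts over the variable segments therefore describes segment use in the RNA and does not resolve clones.

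The libraries held 2279595 to 5722381 counts. The negative cells are not a pure population of plasma cells, and the sorted cells hold many types. The 7 enteroendocrine marker genes listed (Chga, Chgb, Scg2, Pcsk1, Neurod1, Gcg and Cck) were all called higher in reporter positive cells of each strain. Over all genes 6.57% were called higher in NeuroD1 and 4.22% in Glu. Neurod1 and Gcg drive the reporters, so Neurod1 in NeuroD1 cells and Gcg in Glu cells follow from the sorting. The summed levels were 83912 to 135717 CPM (counts scaled to the size of the library) in NeuroD1 positive and 2993 to 3689 CPM in NeuroD1 negative libraries. They were 46050 to 105039 CPM in Glu positive and 3892 to 5201 CPM in Glu negative libraries. A pair of mitochondrial ribosomal RNA genes (mt-Rnr1, mt-Rnr2) held counts in 5 of the NeuroD1 libraries but stood at 0 in NeuroD1_negative_6360 and in every Glu library. Glu_positive_5254 stood apart, with a summed T cell marker level of 1797 CPM against 264 and 323 CPM in the other Glu positive libraries. Counts over all immunoglobulin genes called lower with Glu positive cells are given with and without it. Counts by class of segment and of marker genes are given with it only.

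Immunoglobulin genes were much lower in the sorted reporter positive cells than in the negative cells of both strains. They made up 0.137, 0.147 and 0.253% of all counts in the NeuroD1 positive libraries, against 7.60, 7.22 and 2.85% in the NeuroD1 negative ones. The totals are unlike where mt-Rnr counts are held. With mt-Rnr1 and mt-Rnr2 left out of the total these shares were 0.192, 0.210 and 0.350%, against 7.60, 10.8 and 4.32%. In the Glu libraries the share was 0.265, 0.925 and 0.597% in positive cells, against 19.1 and 3.41% in negative cells. The highest positive library lay below the lowest negative library in each strain. The RNA came from mixed cells, so fewer plasma cells and less immunoglobulin RNA per cell cannot be told apart.

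Of the 177 genes, 150 passed the filter on low counts and were tested in edgeR, and calls were made where the Benjamini-Hochberg adjusted p was under 0.05. In NeuroD1 positive against NeuroD1 negative cells 127 of the 150 were called lower, against a background of 7.61% of all genes tested called lower, and 0 were called higher, against 6.57% of all genes (0 also at an unadjusted p under 0.05, and 0 with DESeq2 and with limma voom). In Glu positive against Glu negative cells 78 were called lower, against a background of 2.41%, and 0 were called higher, against 4.22% (likewise 0 at an unadjusted p under 0.05, with DESeq2 and with limma voom). Every positive library lay below every negative library for 112 of the 150 genes in NeuroD1, against a background of 17.2% of all genes, and for 87 in Glu, against 16.5%. A gene whose counts come from the negative cells passed the filter through them, so these counts describe the genes tested and not all 177. The median log2 fold change over the genes tested was -5.28 in the NeuroD1 comparison and -3.83 in the Glu comparison, beside 0.02 and 0.12 over all genes. In the NeuroD1 comparison 24 of the 150 genes had a group at 0 counts, and with those at the bound that 3 counts over the group allow the median was -4.82. The Glu comparison rests on 2 negative libraries. Without Glu_negative_4665 the log2 fold change of Igha, the IgA constant gene, moved from -3.93 to -1.89, and several Glu calls named below were lost. Without Glu_positive_4665 35 of 150 genes were called lower (276 of all 14171 genes). Without Glu_positive_5254 69 of 150 were (369 of 14171).

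**Figure D1:**
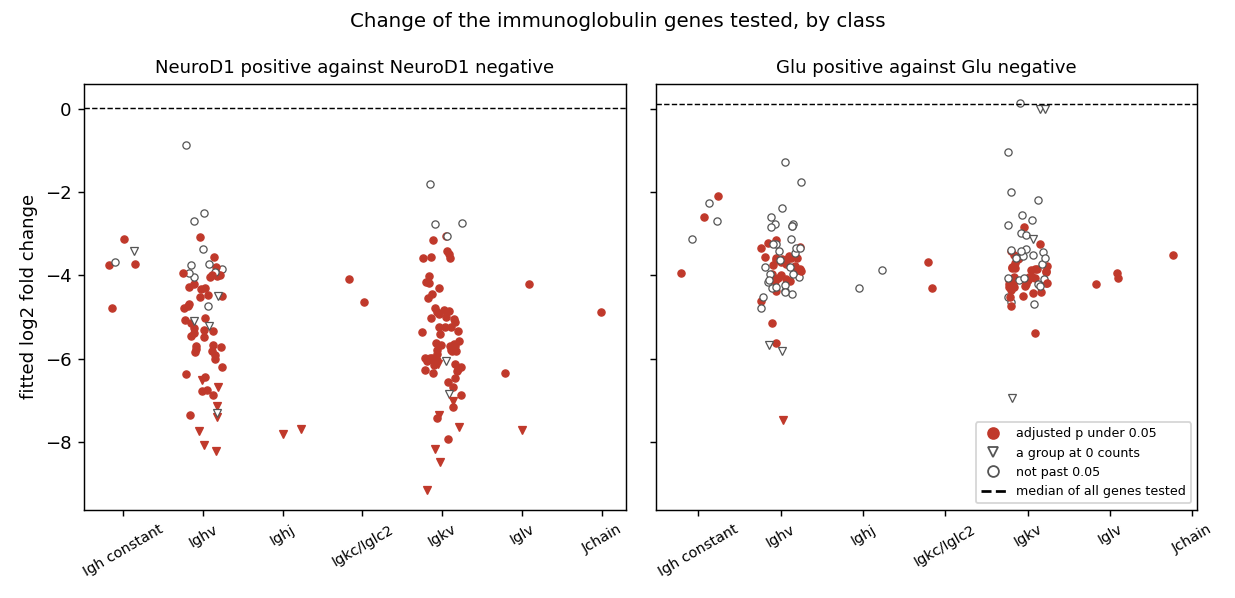
Fitted log2 fold change (vertical axis) of the 150 immunoglobulin genes tested, grouped by class, for NeuroD1 positive against NeuroD1 negative cells (left) and Glu positive against Glu negative cells (right). Filled points passed an adjusted p of 0.05, triangles mark genes at 0 counts in a group, whose fitted value is no bound, and the dashed line is the median of all genes tested; of the points 127 (left) and 78 (right) are filled, and the 3 Iglv segments are filled in both panels.

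Among the constant genes, IgA carried nearly all heavy chain counts. Igha, which encodes the constant region of the IgA heavy chain (GRCm38, chromosome 12, 113254830 to 113260236, minus strand), had 665, 786 and 1444 CPM in NeuroD1 positive cells, against 27531, 35948 and 16585 CPM in NeuroD1 negative cells. The Glu libraries had 1228, 4647 and 3806 CPM in positive cells, against 86886 and 11713 CPM in negative cells. The groups did not overlap in either strain, and the Glu negative libraries lay far apart. The means were 965 ± 419.5 CPM in NeuroD1 positive and 26688 ± 9709 CPM in NeuroD1 negative cells (SD, n = 3 each). In NeuroD1 positive cells Igha fell by 4.79 ± 0.67 (SE) on the log2 scale (adjusted p = 8.1e-05), and in Glu positive cells it fell by 3.93 ± 0.67 (adjusted p = 0.0016). The Glu call was lost without Glu_negative_4665, at a log2 fold change of -1.89 and an adjusted p of 0.097.

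Jchain, the joining chain that links IgA and IgM subunits into polymers (chromosome 5), and Igkc, the kappa constant gene (chromosome 6), followed the same order. Jchain had 23.9, 43.1 and 47.9 CPM in NeuroD1 positive cells, against 994, 1787 and 595 CPM in NeuroD1 negative cells. The Glu values were 41.9, 203 and 274 CPM in positive cells, against 3028 and 893 CPM in Glu negative cells. Its log2 fold change was -4.87 ± 0.65 (adjusted p = 5.1e-05) in NeuroD1 and -3.51 ± 0.63 (adjusted p = 0.0025) in Glu, the second of which was lost without Glu_negative_4665 (-2.40, adjusted p = 0.076). Igkc had 618, 830.2 and 1208 CPM in NeuroD1 positive cells, against 21784, 32206 and 12538 CPM in NeuroD1 negative cells. It had 618, 2730.1 and 2268 CPM in Glu positive cells, against 37954 and 9528 CPM in Glu negative cells. It fell in both, with log2 fold changes of -4.65 ± 0.61 and -3.67 ± 0.61 (adjusted p = 4.5e-05 and 0.0013).

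Over the libraries Igha held 95.5 to 99.5% of the heavy chain constant counts, and 94.0 to 99.4% when counts were divided by exon length. The gene of the IgM heavy chain, Ighm, had 10.3, 14.1 and 15.9 CPM in NeuroD1 positive cells, against 129, 355 and 63.7 CPM in NeuroD1 negative cells. Glu positive cells had 46.4, 141 and 82.2 CPM, against 504 and 263 CPM in Glu negative cells. It fell by 3.75 ± 0.57 in NeuroD1 and by 2.1 ± 0.56 in Glu on the log2 scale (adjusted p = 0.00019 and 0.03), and the Glu call was lost without Glu_negative_4665 (-1.57, adjusted p = 0.30) and without Glu_positive_4665 (-1.78, adjusted p = 0.083).

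As a share of heavy chain constant counts, Ighm made up 1.5, 1.76 and 1.09% in NeuroD1 positive libraries, against 0.47, 0.974 and 0.383% in NeuroD1 negative ones. In the Glu libraries the share was 3.61, 2.92 and 2.1% in positive cells, against 0.575 and 2.17% in negative cells. The NeuroD1 groups did not overlap, and the Glu groups did, since Glu_negative_5254 stood between Glu positive libraries. The 95% Wilson interval in NeuroD1_positive_6362 was 0.867 to 1.36%, and in NeuroD1_negative_6361 it was 0.905 to 1.05%, so these neighbours overlap by counting error alone. No test was made of these shares. The reads were amplified and carry no molecular identifiers, so the intervals speak for counting error alone.

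**Figure D2:**
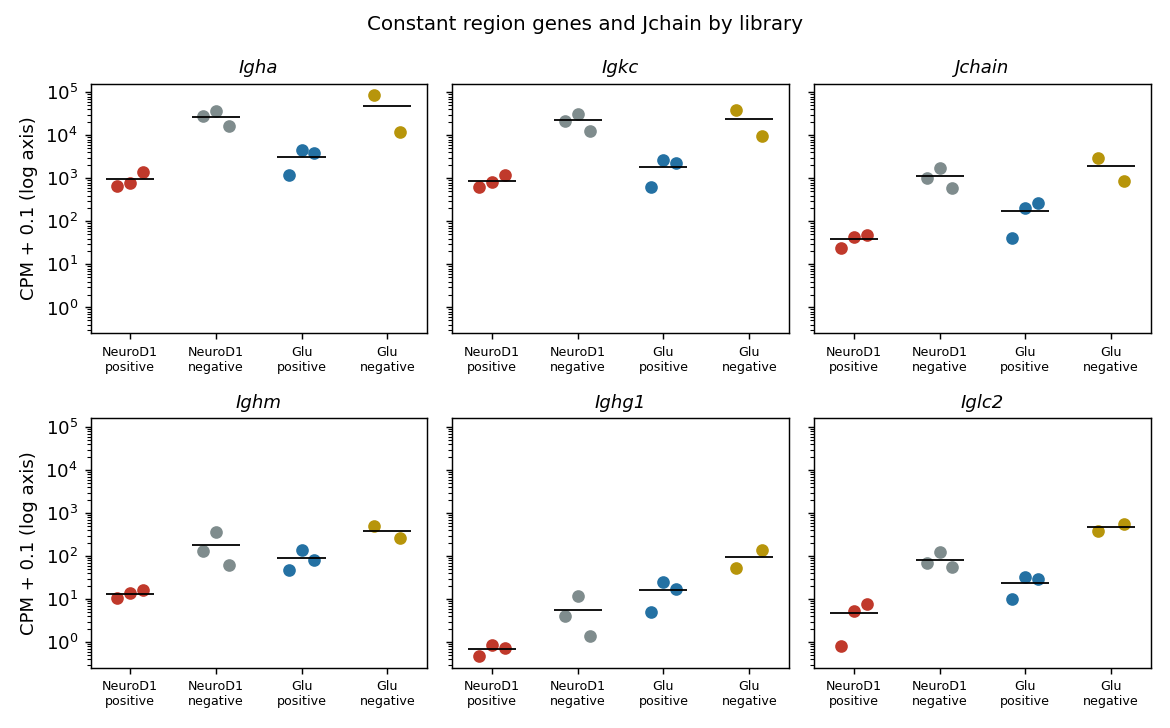
Level of Igha, Igkc, Jchain, Ighm, Ighg1 and Iglc2 in each library (CPM + 0.1, log axis) by group; points are libraries and the line is the group mean. In each panel every positive library lies below every negative library of its strain, and the NeuroD1 positive libraries have 665 to 1444 CPM of Igha.

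The IgG genes were rare. In all libraries but Glu_negative_4665 the subclass in front was Ighg2b in NeuroD1 and Ighg1 in Glu. Of all IgG counts, Ighg2b made up 92.6, 58.3 and 81.0% in NeuroD1 positive libraries, on 25, 7 and 17 counts, against 46.8, 93.5 and 87.9% in NeuroD1 negative ones. In Glu libraries Ighg1 made up 44.2, 49.7 and 53.2% in positive cells, against 20.7 and 88.4% in negative cells. Ighg3 led in Glu_negative_4665, with 45.4% of the IgG counts. Ighg1 was lower in NeuroD1 positive than in Glu positive cells, with 0.367, 0.763 and 0.636 CPM in NeuroD1 positive cells, against 4.84, 25.5 and 17.6 CPM in Glu positive cells (log2 fold change -4.67 ± 0.88, adjusted p = 0.0029). It was also lower in NeuroD1 negative cells, with 3.88, 11.5 and 1.31 CPM, against 54.3 and 136 CPM in Glu negative cells (-4.13 ± 0.79, adjusted p = 0.017), and that call was lost without Glu_negative_5254 (-3.33, adjusted p = 0.36), without NeuroD1_negative_6360 (-3.89, 0.12) and without NeuroD1_negative_6362 (-3.67, 0.10).

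Between positive and negative cells Ighg1 fell by 3.13 ± 0.89 in NeuroD1 (adjusted p = 0.024) and by 2.59 ± 0.73 in Glu (adjusted p = 0.04) on the log2 scale. The NeuroD1 call was lost without NeuroD1_negative_6361 or any of the 3 NeuroD1 positive libraries, with adjusted p-values of 0.058 to 0.14. The Glu call was lost without Glu_negative_5254 (-1.81, adjusted p = 0.39), Glu_negative_4665 (0.080) or Glu_positive_4665 (0.081), and stood at 0.053 without NeuroD1_positive_6360, NeuroD1_positive_6362 or NeuroD1_negative_6360. Ighg2b had 9.18, 2.67 and 3.6 CPM in NeuroD1 positive cells, against 20.4, 173 and 12.7 CPM in NeuroD1 negative cells (-3.74 ± 0.95, adjusted p = 0.012), a difference in which NeuroD1_negative_6361 is high, and without it the value was -1.69 (adjusted p = 0.23). The Ighg2b call was also lost without NeuroD1_positive_6361 (adjusted p = 0.058) or NeuroD1_positive_6362 (0.060). Its Glu value was -2.69 ± 0.95 (adjusted p = 0.099). Ighg3 and Ighg2c did not pass in NeuroD1 or Glu. Ighg2c had 0 counts in the NeuroD1 positive libraries together and 3 in the NeuroD1 negative ones, against 21 in Glu positive and 130 in Glu negative ones. Ighe, which encodes the IgE heavy chain, did not pass the filter, with 0 counts in NeuroD1 positive and 6 in NeuroD1 negative libraries and 1 in Glu positive and 21 in Glu negative libraries.

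**Figure D3:**
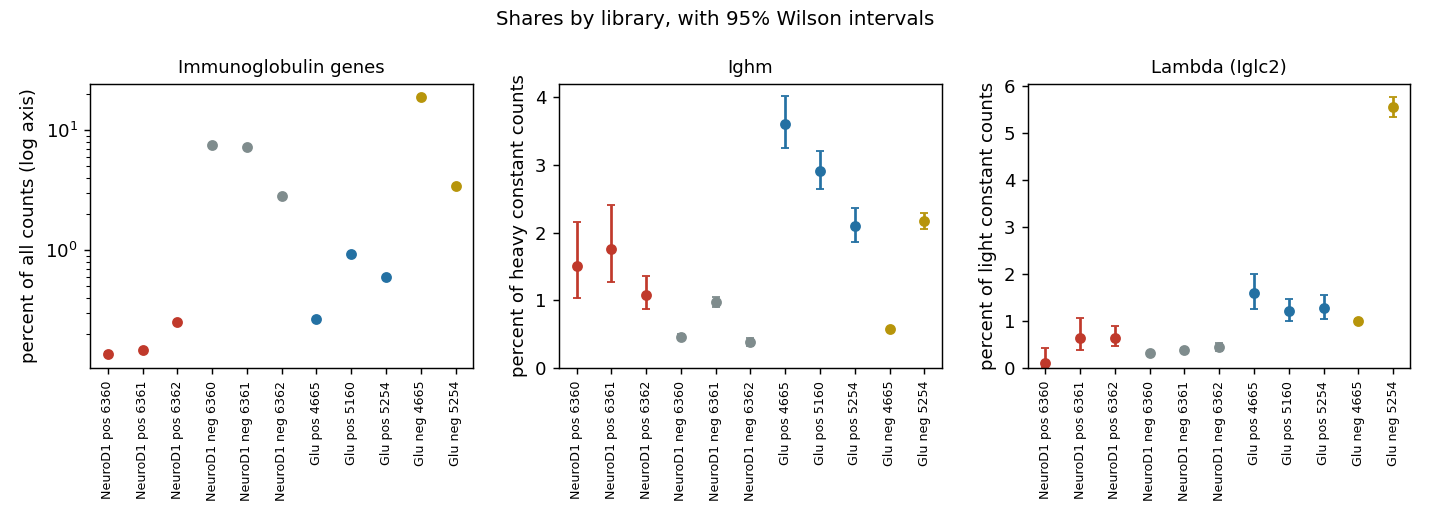
Share by library of all immunoglobulin genes in all counts (left, log axis), of Ighm in heavy chain constant counts (middle) and of the lambda gene Iglc2 in light chain constant counts (right); bars are 95% Wilson intervals for counting error. The Iglc2 share of Glu_negative_5254 is 5.54%, above the other 10 libraries, at 0.119 to 1.59%.

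Lambda light chains were rarer in NeuroD1 mice than in Glu mice. Iglc2, a lambda constant gene, made up 0.119, 0.639 and 0.645% of light chain constant counts in NeuroD1 positive libraries, against 0.311, 0.385 and 0.440% in NeuroD1 negative ones. It made up 1.59, 1.21 and 1.28% in Glu positive libraries, against 1.00 and 5.54% in Glu negative ones. The value for NeuroD1_positive_6360 rests on 2 counts and its 95% interval runs to 0.431%. Iglc2 was the only lambda constant gene in the count table, so RNA of other lambda constant genes is not in this share. Per 100 Iglc2 counts there were 130, 123 and 141 Iglv counts in Glu positive and 154 and 72.2 in Glu negative libraries. Per 100 Igkc counts there were 20.5 to 30.6 Igkv counts in the same libraries. The NeuroD1 positive libraries had 550, 21.4 and 54.1 Iglv counts per 100 Iglc2 counts, on 2, 14 and 37 Iglc2 counts. The NeuroD1 negative libraries had 61.6, 101 and 111. How far the Iglc2 share falls short of all lambda RNA was not tested. Counted on variable segments, lambda made up 2.08, 0.503 and 1.51% in NeuroD1 positive libraries, against 0.686, 1.29 and 1.61% in NeuroD1 negative ones. By the same count it made up 8.43, 6.82 and 8.17% in Glu positive libraries, against 6.48 and 12.2% in Glu negative ones, so on either count every Glu library was above every NeuroD1 library.

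In CPM, Iglc2 was lower in NeuroD1 positive than in Glu positive cells, at 0.734, 5.34 and 7.84 CPM in NeuroD1 positive cells, against 9.97, 33.4 and 29.4 CPM in Glu positive cells (-2.31 ± 0.58, adjusted p = 0.019). That call was lost without NeuroD1_positive_6360 or NeuroD1_positive_6361 and without Glu_positive_5160. Iglv1, the leading lambda variable segment, had 39.8, 80.8 and 53.7 CPM in NeuroD1 negative cells, against 328 and 344 CPM in Glu negative cells (-2.54 ± 0.50, adjusted p = 0.024). Iglv1 was lower in NeuroD1 positive than in Glu positive cells as well, at 4.04, 0.763 and 4.24 CPM in NeuroD1 positive cells, against 9.97, 27.6 and 28.8 CPM in Glu positive cells (-2.80 ± 0.53, adjusted p = 0.0032). Iglv2 was at 0 counts in the NeuroD1 positive libraries and at 96 counts in the Glu positive ones, at least 24.4-fold lower in NeuroD1 positive cells by a floor of 3 counts over the group. Every NeuroD1 positive library held mt-Rnr counts and no Glu library did, so strain and that difference in the tables cannot be told apart between the positive populations.

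The leading kappa segments differed between the strains, and Igkv1-110 was the leading segment of the Glu libraries. Igkv1-110 (GRCm38 chromosome 6, 68270485 to 68271267, plus strand) is shown beside Igkv1-117, another member that is close to it in sequence, since reads from such copies can be exchanged in counting. The last 300 bases of the 2 transcripts differ at 10 positions, given in capitals (GENCODE vM21).
Igkv1-110: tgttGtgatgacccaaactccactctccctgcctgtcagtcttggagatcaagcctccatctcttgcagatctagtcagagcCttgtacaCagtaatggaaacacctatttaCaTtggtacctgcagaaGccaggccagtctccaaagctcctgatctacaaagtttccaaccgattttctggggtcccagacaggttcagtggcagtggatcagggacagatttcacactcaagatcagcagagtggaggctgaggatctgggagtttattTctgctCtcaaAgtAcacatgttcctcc
Igkv1-117: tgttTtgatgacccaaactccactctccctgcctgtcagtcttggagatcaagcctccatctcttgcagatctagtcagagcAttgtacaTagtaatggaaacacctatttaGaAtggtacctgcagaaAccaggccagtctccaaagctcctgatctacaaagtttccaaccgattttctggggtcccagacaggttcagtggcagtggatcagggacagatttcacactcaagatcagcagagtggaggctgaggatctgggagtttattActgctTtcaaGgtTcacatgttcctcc
Over the 87 Igkv members 44 have another Igkv member at 90% identity or more and 10 at 95% or more, while of the 75 Ighv members 50 do at 90% and 17 at 95%. Values of single segments are therefore uncertain where such a copy exists, and Igkv1-110 and Igkv1-117 are 96.8% identical over their transcripts.

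Igkv1-110 made up 24.4, 25.2 and 24.3% of the Igkv counts in Glu positive libraries, against 28.6 and 29.3% in Glu negative libraries. In NeuroD1 libraries it made up 10.6, 2.86 and 2.38% in positive cells, against 6.35, 5.28 and 5.01% in negative cells. All Glu libraries were above all NeuroD1 libraries. In CPM, Igkv1-110 had 20.2, 6.49 and 6.57 CPM in NeuroD1 positive cells, against 34.3, 141 and 113 CPM in Glu positive cells (-3.13 ± 0.59, adjusted p = 0.0028). Within each strain it fell too, by 5.03 ± 0.63 in NeuroD1 positive cells and by 4.10 ± 0.61 in Glu positive cells on the log2 scale (adjusted p = 3.1e-05 and 0.00044). Igkv1-117, its close copy, had a share of 1.93, 2.69 and 4.07% in NeuroD1 positive libraries, against 6.58, 4.75 and 6.85% in NeuroD1 negative ones, and 2.83, 2.09 and 2.34% in Glu positive libraries, against 1.55 and 4.33% in Glu negative ones, so the copies were not used in the same ratio.

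In the NeuroD1 mice no single kappa segment led as far. Igkv15-103 made up 2.71, 2.36 and 2.15% of the Igkv counts in NeuroD1 positive libraries, against 8.14, 8.06 and 8.29% in NeuroD1 negative libraries, where the 3 negative libraries were close together and well above the positive ones. Its Glu shares overlapped, at 4.66, 4.06 and 3.83% in positive libraries, against 2.56 and 7.59% in negative ones. In CPM it had 5.14, 5.34 and 5.93 in NeuroD1 positive cells, against 492, 771 and 311 in NeuroD1 negative cells, with a log2 fold change of -6.57 ± 0.52 (adjusted p = 3e-07), and -3.83 ± 0.47 in Glu (adjusted p = 9e-05). Igkv6-15 fell in both strains, with log2 fold changes of -5.04 ± 0.65 and -4.07 ± 0.65 (adjusted p = 4.1e-05 and 0.00088). The Glu call of Igkv6-15 was lost without Glu_negative_4665, at -2.58 and an adjusted p of 0.0504.

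Single libraries also had segments of their own. Igkv3-5 made up 79 of the 517 Igkv counts of NeuroD1_positive_6360, or 15.3% (95% Wilson interval 12.4 to 18.6%), against a median of 0.322% in the other libraries. Igkv1-133 led in NeuroD1_positive_6361 with 81 of 594 counts, or 13.6%, against a median of 0.406% elsewhere. In NeuroD1_positive_6362 and NeuroD1_negative_6362 Igkv10-96 led, with shares of 10.7 and 10.5%. Igkv1-99, chosen after its values were seen, made up 0.967, 6.73 and 8.14% in NeuroD1_positive_6360, NeuroD1_positive_6361 and NeuroD1_positive_6362, against 0.0466, 4.32 and 8.5% in the NeuroD1 negative libraries of the same numbers, and was lowest in NeuroD1_positive_6360 and NeuroD1_negative_6360 within their groups.

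**Figure D4:**
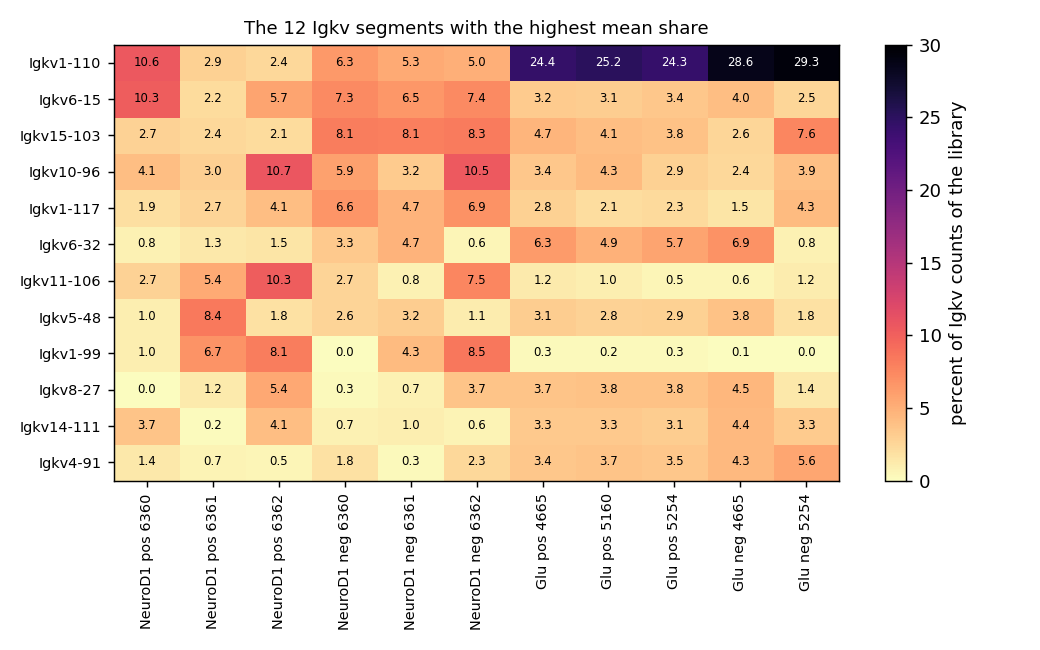
Share (percent of the Igkv counts of the library) of the 12 Igkv segments with the highest mean share, by library, with darker colours for higher shares. Igkv1-110 is at 24.3 to 29.3% in the 5 Glu libraries and at 2.4 to 10.6% in the 6 NeuroD1 libraries.

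A few segments differed between the strains in one population, and most of them were nearly absent from one strain. Igkv4-74 had 1.59, 0.502 and 4.37 CPM in NeuroD1 negative cells, against 212 and 33.2 CPM in Glu negative cells (-5.84 ± 0.93, adjusted p = 0.0047). Igkv12-89 went the other way, with 23.4, 39.7 and 32.7 CPM in NeuroD1 negative cells, against 0.56 and 0.221 CPM in Glu negative cells, on 5 counts in Glu negative cells (6.18 ± 1.11, adjusted p = 0.011). These 2 segments and Igkv15-103 end in the following 120 bases, shown because the segments set the strains or populations apart, with the last cysteine codon in frame in capitals, after which the joined junction begins.
Igkv15-103: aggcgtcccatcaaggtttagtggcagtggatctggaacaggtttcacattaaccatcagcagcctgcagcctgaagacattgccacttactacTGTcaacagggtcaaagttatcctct
Igkv12-89: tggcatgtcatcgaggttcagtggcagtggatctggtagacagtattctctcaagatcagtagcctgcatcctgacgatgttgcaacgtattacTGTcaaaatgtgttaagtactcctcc
Igkv4-74: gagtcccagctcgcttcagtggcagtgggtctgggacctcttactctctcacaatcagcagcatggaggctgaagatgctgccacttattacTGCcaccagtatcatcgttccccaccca
Over the negative populations 4 immunoglobulin genes were called lower in NeuroD1 than in Glu and 1 higher, against backgrounds of 0.126% and 0.363% of all genes. The 4 lower genes were Ighg1, Iglv1, Igkv4-74 and Ighv1-77, and the higher one was Igkv12-89. Igha and Igkc did not pass there, at -0.89 ± 0.63 and -0.10 ± 0.58 (adjusted p = 0.77 and 0.99). Each of the 5 calls was lost without at least 1 of the negative libraries. Without Glu_negative_4665 the calls of Iglv1, Igkv4-74, Igkv12-89 and Ighv1-77 were lost, and without Glu_negative_5254 those of Ighg1, Iglv1 and Igkv12-89. Without NeuroD1_negative_6360 those of Ighg1 and Iglv1 were lost, without NeuroD1_negative_6361 those of Igkv12-89 and Ighv1-77, and without NeuroD1_negative_6362 those of Ighg1, Iglv1, Igkv12-89 and Ighv1-77. The Ighv1-77 call was also lost without NeuroD1_positive_6362 (adjusted p = 0.057).

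Between the positive populations 18 immunoglobulin genes were called lower in NeuroD1 than in Glu, against a background of 4.95%, and 1 higher, against 3.18%. The 1 higher was Igkv11-106, which the annotation lists as a pseudogene of the variable class. It had 5.14, 12.2 and 28.4 CPM in NeuroD1 positive cells, against 1.71, 5.86 and 2.43 CPM in Glu positive cells (2.28 ± 0.64, adjusted p = 0.033), and the ranges overlap. The call was lost without NeuroD1_positive_6361, NeuroD1_positive_6362, Glu_positive_4665 or Glu_positive_5254. Jchain and Ighm were among the genes called lower, with log2 fold changes of -2.17 ± 0.58 and -2.73 ± 0.55 (adjusted p = 0.027 and 0.0052). Igha did not pass (-1.74, adjusted p = 0.074). The count lower was 6 to 7 when any 1 NeuroD1 positive library was left out (303 to 350 over all genes). It was 10 without Glu_positive_5160 (753 over all genes), 11 without Glu_positive_5254 (460) and 0 with limma voom (243). The Jchain call was lost in each of these settings.

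The change between positive and negative cells was not called different between the strains for any immunoglobulin gene in edgeR, with 0 of 150 genes against backgrounds of 0.0209% lower and 0.0907% higher; 13 were lower at an unadjusted p under 0.05. DESeq2 called 2 of the 150 lower and 0 higher, against 0.858% and 0.398% of all genes, and limma voom called 0. A p that misses the threshold does not show that the changes were alike: the interaction value for Igkv15-103 was -2.74 (adjusted p = 0.11), and for Igha it was -0.86 (adjusted p = 0.76).

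Among heavy chain variable segments, Ighv3-6 led in several libraries of both strains. It had 12.5, 1.91 and 5.09 CPM in NeuroD1 positive cells, against 197, 215 and 91.2 CPM in NeuroD1 negative cells. Glu positive cells had 3.85, 12.7 and 7.89 CPM, against 157 and 92 CPM in Glu negative cells. It fell by 4.70 ± 0.61 in NeuroD1 and by 3.97 ± 0.62 in Glu on the log2 scale (adjusted p = 4.5e-05 and 0.00065). As a share of Ighv counts it made up 28.3, 5.26 and 7.97% in NeuroD1 positive libraries, against 14.5, 9.19 and 10.5% in NeuroD1 negative ones, on 34, 5 and 24 counts in the positive libraries. Ighv1-81 and Ighv2-9-1 had the largest fitted falls in NeuroD1 among the called Ighv segments with an average log2 CPM of 4 or more. Ighv1-81 was at 0.367, 0.382 and 0.424 CPM in NeuroD1 positive cells, on 4 counts in all, against 17.1, 63.3 and 69.8 CPM in NeuroD1 negative cells (-6.87 ± 1.01, adjusted p = 0.00013). The last 120 bases of Ighv3-6 and Ighv1-81 are given with the same codon in capitals.
Ighv3-6: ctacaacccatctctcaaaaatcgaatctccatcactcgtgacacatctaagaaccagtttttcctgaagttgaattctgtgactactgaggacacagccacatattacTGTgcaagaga
Ighv1-81: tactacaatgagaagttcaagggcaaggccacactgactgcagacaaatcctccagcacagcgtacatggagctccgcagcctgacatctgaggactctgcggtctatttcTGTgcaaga
Ighv2-9-1, which fell too, was at 0 counts in NeuroD1 positive libraries and at 54, 36 and 0 in the NeuroD1 negative ones, so the groups overlap at 0. Over the 90 counts of the NeuroD1 negative libraries together it was at least 30.3-fold lower in NeuroD1 positive cells, a bound that does not hold for NeuroD1_negative_6362 alone. Of the Ighv members tested, 49 of 64 were called lower in NeuroD1 and 30 of 64 in Glu, and of the Igkv members 66 of 72 and 39 of 72, against 7.61% of all genes tested in NeuroD1 and 2.41% in Glu.

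Of the D and J segments only 2 had 15 counts or more. The 20 Ighd segments and the 5 Igkj segments in the table were at 0 counts, as were 2 of the 4 Ighj segments. Ighj1 had 0 counts in NeuroD1 positive libraries and 45, 21 and 1 in NeuroD1 negative ones, at least 22.6-fold lower over the groups. Ighj4 had 0 counts in NeuroD1 positive libraries and 26, 27 and 6 in NeuroD1 negative ones, at least 19.9-fold lower over the groups. Both encode the last framework of the heavy chain, and the conserved tryptophan and glycine at its start are read from the letters in capitals.
Ighj1: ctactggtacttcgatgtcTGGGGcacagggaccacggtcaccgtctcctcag
Ighj4: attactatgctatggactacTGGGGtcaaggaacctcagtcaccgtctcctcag

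The Glu positive libraries and Glu_negative_4665 were the closest to each other in Igkv segment use. Overlap was measured as the sum, over segments, of the smaller of the 2 libraries' shares, in percent. Glu positive libraries overlapped by 87 to 89% with each other in Igkv use and by 82 to 85% with Glu_negative_4665, against 67 to 70% with Glu_negative_5254. Glu_positive_5254 therefore overlapped more with the negative library of another number (82.1%) than with that of its own (67.3%). In Ighv use the same library overlapped by 76.2% with Glu_negative_4665 and by 57.8% with Glu_negative_5254.

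In the NeuroD1 mice the closest negative library in Igkv use had the same number for all 3 positive libraries, at 50.3, 54.2 and 74.5% for NeuroD1_positive_6360, NeuroD1_positive_6361 and NeuroD1_positive_6362, against 46.6, 45.1 and 53.2% for the next negative library. In Ighv use this held for 2 of the 3. The NeuroD1 positive libraries overlapped by 35.5 to 48.2% with each other in Igkv use, and by 36.3 to 45.8% with the Glu positive libraries, so these ranges overlap. Pairs of libraries of different strains had median overlaps of 43.2 to 48.9% over both classes and sorts. The positive libraries hold only 95 to 579 Ighv counts and 517 to 1626 Igkv counts, and a share on so few counts lowers the overlap, so these values are descriptions and no test was made.

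**Figure D5:**
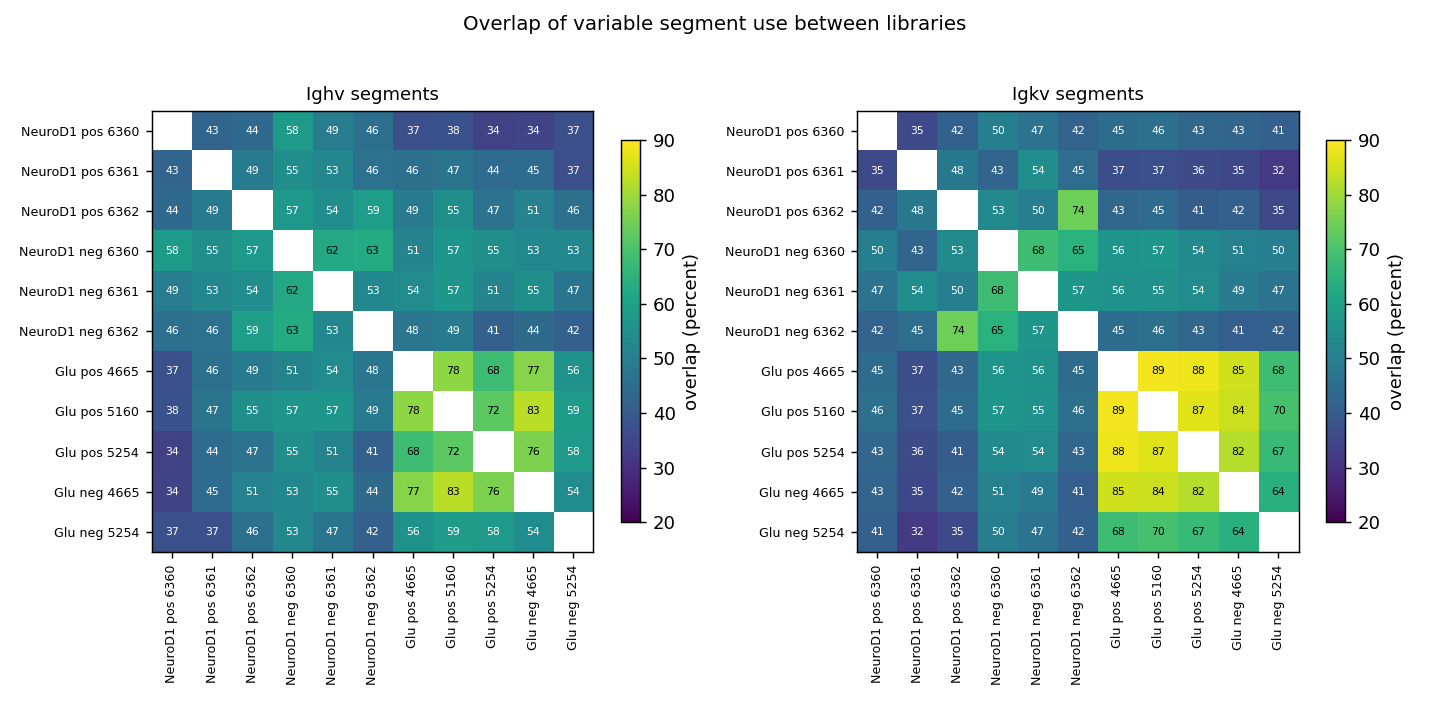
Overlap (percent) of Ighv segment use (left) and Igkv segment use (right) between every pair of libraries, as the sum of the smaller share over segments. The Glu positive libraries and Glu_negative_4665 overlap by 82 to 89% in Igkv use, and Glu_negative_5254 by 64 to 70% with them.

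Many marker genes of plasma cells and of other immune cells were also lower in NeuroD1 positive cells. Fewer were called in Glu positive cells, with Glu_positive_5254 included. The 14 plasma cell markers included 9 called lower in NeuroD1 positive cells and 6 in Glu positive cells, against backgrounds of 7.61 and 2.41%. The transcription factor gene Irf4, which plasma cells need, had 0.367, 1.14 and 2.75 CPM in NeuroD1 positive cells, against 96.2, 174 and 48.9 CPM in NeuroD1 negative cells (-6.06 ± 0.95, adjusted p = 0.00027). The summed plasma cell markers ranged from 259 to 372 CPM in NeuroD1 positive and from 684 to 1416 CPM in NeuroD1 negative libraries, and from 303 to 666 CPM in Glu positive and from 697 to 1974 CPM in Glu negative libraries. The 666 CPM is Glu_positive_5254, and the other Glu positive libraries had 303 and 400 CPM.

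Of the B cell, T cell and macrophage markers 7 of 10, 8 of 8 and 5 of 6 were called lower in NeuroD1 positive cells, against 7.61% of all genes. In Glu positive cells 2 of 10, 1 of 8 and 4 of 6 were, against 2.41%. The summed B cell markers ranged from 1.84 to 7.63 CPM in NeuroD1 positive and 68.1 to 152.6 CPM in NeuroD1 negative libraries, and from 36.0 to 65.5 CPM in Glu positive and 175.8 to 318 CPM in Glu negative libraries. The summed T cell markers ranged from 7.71 to 52.8 CPM in NeuroD1 positive and 195.6 to 334 CPM in NeuroD1 negative libraries, and from 264 to 1797 CPM in Glu positive and 724 to 823 CPM in Glu negative libraries. Glu_positive_5254 was above both Glu negative libraries in its T cell markers, while its immunoglobulin share was below both. The summed macrophage and dendritic cell markers ranged from 54.0 to 86.2 CPM in NeuroD1 positive and 633 to 1082 CPM in NeuroD1 negative libraries, and from 263 to 367 CPM in Glu positive and 1877 to 1890 CPM in Glu negative libraries. The part of these cells in the immunoglobulin values was not tested. The genes of V(D)J recombination and the surrogate light chain were at or near 0, with at most 0.663 CPM summed over 5 genes in any library, and Rag1 was at 0 in all.

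Of the 16 genes of IgA transport, induction and homing, 13 were tested and 8 were called lower in NeuroD1 positive cells, against 7.61% of all genes. In Glu positive cells 2 were called lower, against 2.41%, and 1 higher, against 4.22%. Pigr, the receptor that carries polymeric IgA across epithelial cells, had 1512, 1078 and 1147 CPM in NeuroD1 positive cells, against 2554, 1848 and 2941 CPM in NeuroD1 negative cells. It fell by 0.97 ± 0.31 on the log2 scale (adjusted p = 0.043), a call lost without any of the 3 NeuroD1 positive libraries, NeuroD1_negative_6360, NeuroD1_negative_6362 or either Glu negative library (adjusted p = 0.056 to 0.18). Ccl25, the chemokine that draws gut homing lymphocytes, had 46.3, 37 and 32.8 CPM in NeuroD1 positive cells, against 318, 196 and 261 CPM in NeuroD1 negative cells (-2.74 ± 0.33, adjusted p = 1.9e-05). The higher gene was Ccl28, a chemokine that attracts IgA plasma cells, with 134, 118 and 118 CPM in Glu positive cells, against 30.1 and 23.7 CPM in Glu negative cells (2.19 ± 0.42, adjusted p = 0.0038). The Ccl28 call was lost without either Glu negative library.

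By rank over the 11 libraries and 6810 genes, the non-member genes most like Igha in level were Cd93 (Spearman 0.98), Mt2, Cd79a, Cybb, Edem1, Tram2, Tbc1d2b and Pik3r5 (0.94 for the last), a description in which the libraries share their sorting. Cd79a, which encodes a chain of the B cell receptor complex, had 0.367, 1.14 and 1.7 CPM in NeuroD1 positive cells, against 45.1, 78.3 and 35.8 CPM in NeuroD1 negative cells. Edem1 and Tram2 encode proteins of the endoplasmic reticulum, through which secreted proteins pass.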

How the data were processed

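Sorted mouse duodenal cells were measured by RNA-seq in 11 libraries of 4 groups, prepared with the Ovation RNAseq v2 kit, per the labels' protocols. GRCm38 and the tools TopHat2 2.1.0, Cufflinks 2.2.1 and CASAVA are listed in the submitters' processing notes; neither annotation release nor strand setting is given in the sources used here. The count table deposited by the authors holds the authors' expected counts per gene, which were rounded to whole numbers before testing; 848 genes held values that were not whole, and 0 of the members did. Counts were tested in edgeR 4.0.16 (R 4.3.3) by its quasi-likelihood test with 4 group means fitted over all libraries, after filterByExpr (which kept 14332 genes) and TMM scaling, with Benjamini-Hochberg adjustment over all genes tested. The fit was tested on simulated data. Symbols, positions and segment sequences come from GENCODE vM21 (GRCm38), and identities were computed with edlib. Members, lists and tests were chosen with earlier results of these data known. Named genes were, by rule, the constant genes, Jchain, the 4 Ighv, Igkv and Iglv segments highest in negative cells, the 2 largest falls of Ighv and Igkv, members higher in a positive population and the 2 segments most particular to 1 library. The labels do not say what the shared sample numbers stand for, so they were used as a block only as an alternative.

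The alternatives changed the scaling (RLE, upper quartile, library totals, immunoglobulin genes left out), the filter (none, or stricter), the test (DESeq2 1.42.0, limma voom in limma 3.58.1), the samples (only the groups compared, each library left out), the design (a replicate block) or the table (mt-Rnr1 and mt-Rnr2 left out). Shares carry 95% Wilson intervals, and where a group had 0 counts its floor was set at 3. Both cover counting error only.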

Additional observations from a re-analysis of the deposited data

How the results depend on the processing

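Over 66 pairs of a named gene and a comparison, 62 of them called, 1432 values were computed under 22 alternatives. Of these, 94 lost their call, 8 gained one and 4 turned sign, 0 of the last for a called gene. Igha turned sign between the negative populations without Glu_negative_4665 (1.18). Igkc turned sign there with limma voom (0.093), without NeuroD1_negative_6362 (0.19) and without Glu_negative_4665 (1.21). With 1 library left out these values ranged from -1.72 to 1.18 for Igha and from -0.79 to 1.21 for Igkc. Both of these ranges include the fits without a Glu negative library. DESeq2 gave no adjusted p for 1 pair. Counts of immunoglobulin genes called lower in NeuroD1 positive cells were 78 of 150 with limma voom (821 of all 14332 genes tested). With 1 library left out they ran from 99 of 151 (720 of 14310 genes, without NeuroD1_positive_6360) to 130 of 150 (1419 of 14171, without Glu_positive_5254). Ranges with 1 library left out set the Glu negative libraries aside, since leaving out either leaves 1 in that group. In Glu positive cells they were 133 with no filter, 47 with a replicate block and 18 to 84 with 1 library left out; the NeuroD1 count with the replicate block was 116 and no interaction call appeared. Under the block Ighg2b in NeuroD1 stood at -2.76 (adjusted p = 0.071). Over all genes, deviations of libraries with the same number correlated by 0.01 to 0.05, and the number was not taken to pair the samples in the main fit. Of the 3 NeuroD1 positive libraries, 2 correlated best with the negative library of their own number. Over the 150 immunoglobulin genes the same-number correlations were 0.20, 0.24 and 0.42 in NeuroD1, where all 3 matched their own number best. That is a hint from the data and not from the design. In Glu they were -0.15 and 0.020. The deviations of 2 negative libraries are mirror images (0.039 and -0.039 over all genes for Glu_positive_5254), so the Glu values cannot show whether the numbers pair.

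Between the positive populations the count lower was 48 of 177 with no filter (1248 of 23468 genes), 0 of 150 with limma voom (243 of 14332) and 9 of 40 with only the groups compared (324 of 11539). With 1 library left out it ran from 6 of 150 (350 of 14184) to 25 of 150 (1322 of 14171). The count higher was 9 with no filter (654 genes), 0 with library totals (283), limma voom (403) or only the groups compared (241), and 2 with DESeq2 (709). It was 0 to 2 with 1 library left out (245 to 860 genes). Between the negative populations the count lower was 7 of 150 with library totals (38 of 14332 genes) and 22 of 177 with no filter (92 of 23468). It was 1 to 6 with 1 library left out (4 to 44 genes). The count higher was 16 with no filter (153 genes), 4 with limma voom (57), 3 with DESeq2 (132) and 2 of 148 with only the groups compared (73 of 12971). It was 0 to 3 with 1 library left out (32 to 89 genes). The count of strain differences lower was 6 of 177 with no filter (260 of 23468 genes) and 2 of 150 with DESeq2 (123 of 14332). It was 0 to 1 with 1 library left out (0 to 31 genes). The mean immunoglobulin share of all counts in NeuroD1 positive libraries was 0.250% without mt-Rnr1 and mt-Rnr2. In the NeuroD1 negative libraries the share then moved from 7.22 to 10.8% in NeuroD1_negative_6361 and from 2.85 to 4.32% in NeuroD1_negative_6362. NeuroD1_negative_6360 stayed at 7.60%, so the order of these libraries changed. Per kilobase of exon, chosen after seeing the data, the mean Igha share in Glu positive libraries was 94.99% and the Ighm share 2.03% in NeuroD1 positive and 4.01% in Glu positive libraries. The mean lambda share by variable segments was 1.37% in NeuroD1 positive and 1.20% in NeuroD1 negative libraries, and 7.81% in Glu positive and 9.32% in Glu negative ones. Where a call or value changed, the cause was not tested. The positive libraries held 95 to 579 Ighv counts each, which limits the precision of their segment shares.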
